A study of Mus musculus with 25 samples.

Results

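The microRNAs of the imprinted region between Dlk1 and Dio3 were present at a low level in the blood of mice of all 5 ages, and none of the 8 that could be tested changed with age past the threshold. Of all tested hairpins 1.48% to 19.8% passed it, depending on the comparison, so a count of 0 among 8 says little. The set was defined by name and place, not by its values: 44 of the 1193 microRNA hairpins in the deposited count table lie in this region of mouse chromosome 12 and carry the names listed for it, and all 44 were found in the table. Together they held 15035 of 386971411 counted reads, or 38.9 CPM (reads per 1000000 reads), with 198 to 1386 reads per library. In the table the names carry a species prefix, as in mmu-mir-127, mmu-mir-434 and mmu-mir-410, which is left out from here on. A single hairpin, mir-127, gave 55.8% of these reads, and the 5 hairpins that lie antisense to Rtl1 gave 76.6%.

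The mice were males of the inbred strain C57BL/6, aged 2, 9, 15, 24 or 30 months, with 5 libraries per age and 25 in all. Each library carries the number of a separate animal, no genetic change or treatment is named for any group, and age is the only factor that differs between the groups in the labels. Small RNA was sequenced, and the table counts the reads of each hairpin, the folded precursor from which 1 or 2 mature microRNAs of about 22 bases are cut. The arms of a hairpin are not separated in the table. Levels by library are CPM of the library size after scaling by trimmed mean of M-values (TMM).

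In this region Dlk1, Rtl1 and Dio3 are protein-coding genes expressed from the chromosome inherited from the father. The long noncoding RNAs Meg3 (also called Gtl2), Rian and Mirg, and the microRNAs along them, are expressed from the chromosome inherited from the mother. The microRNAs are known chiefly from the brain, the placenta and the embryo, and the region is also active in blood-forming stem cells. Several are fully complementary to the Rtl1 transcript, since they are made from the strand opposite it, and they guide its cleavage.

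On the GRCm38 assembly the 44 hairpins lie on the plus strand of chromosome 12 from base 109563692 to base 109743795, a span of 180.104 kb, between Dlk1 (109452485 to 109463336) and Dio3 (110279230 to 110281097). The RefSeq table of GRCm38.p6 and the GENCODE vM21 annotation place all 44 at the same coordinates. Per that annotation mir-770 lies in an exon of Meg3, and mir-431, mir-433, mir-127, mir-434 and mir-136 lie opposite an exon of Rtl1. mir-341 and mir-370 lie in an intron of Rian, 11 hairpins lie within Mirg, and 30, the 5 opposite Rtl1 among them, have no other gene on their own strand.

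The mature sequences of the 8 hairpins with enough reads to be tested are shown because every tested value below belongs to 1 of them, and because the table does not say which arm the reads came from. They are the mouse entries of RefSeq on GRCm38.p6, 5′ to 3′, with the seed, bases 2 to 8, in capitals. The pair cut from mir-127, at 109592846 to 109592915, and the pair cut from mir-434, at 109594506 to 109594599, come from the strand opposite Rtl1, as does the pair of mir-136, at 109595327 to 109595388.
miR-127-5p: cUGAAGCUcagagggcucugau
miR-127-3p: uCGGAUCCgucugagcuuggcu
miR-434-5p: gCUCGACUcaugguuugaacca
miR-434-3p: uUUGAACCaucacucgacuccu
miR-136-5p: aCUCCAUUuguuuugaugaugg
miR-136-3p: aUCAUCGUcucaaaugagucuu

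The other 5 tested hairpins lie further along, in the part that ends in Mirg. mir-411 is at 109710175 to 109710256, mir-300 at 109724313 to 109724391, mir-381 at 109726822 to 109726896, mir-541 at 109742409 to 109742498 in an intron of Mirg, and mir-410 at 109743715 to 109743795 in an exon of Mirg.
miR-411-5p: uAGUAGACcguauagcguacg
miR-411-3p: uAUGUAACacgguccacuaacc
miR-300-5p: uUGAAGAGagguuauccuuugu
miR-300-3p: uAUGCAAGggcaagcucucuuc
miR-381-5p: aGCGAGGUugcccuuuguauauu
miR-381-3p: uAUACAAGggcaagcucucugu
miR-541-5p: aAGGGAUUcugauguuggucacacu
miR-541-3p: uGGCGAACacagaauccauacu
miR-410-5p: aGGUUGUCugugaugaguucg
miR-410-3p: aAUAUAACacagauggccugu

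mir-379, at 109709060 to 109709125, starts the same stretch and ends 1049 bases before mir-411. It is shown for comparison, because its 3p arm has the same seed as that of mir-411 and few reads.
miR-379-5p: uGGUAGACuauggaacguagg
miR-379-3p: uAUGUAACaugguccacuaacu

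All 44 hairpins had an entry in the sequence table, with 84 mature sequences and 81 distinct seeds. Both arms were listed for 40 hairpins and 1 arm for 4. Only 3 seeds occurred in more than 1 of its mature sequences, each in 2 of them. AUGUAAC is shared by miR-379-3p and miR-411-3p, GGUUGUC by miR-494-5p and miR-410-5p, and UGGAUAU by miR-376c-5p and miR-376b-5p. The 3p arms of mir-381 and mir-300 have the different seeds AUACAAG and AUGCAAG.

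Reads were spread very unevenly along the cluster. Over the 25 libraries mir-127 had 8394 reads, mir-434 had 2534 (16.9% of the reads of the cluster) and mir-410 had 1030 (6.85%). Next came mir-411 with 568 reads, mir-136 with 493, mir-381 with 482, mir-541 with 367 and mir-300 with 280. These 8 passed the filter on low counts and held 94.1% of the reads of the cluster, and the 36 others held 887 reads together. Of the 1193 hairpins of the table the filter left out 855.

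The order of the first hairpins was the same in nearly every library. mir-127 exceeded mir-434 in 25 of 25 libraries, mir-434 exceeded mir-410 in 25 of 25, and mir-410 exceeded mir-411 in 24 of 25. Below that the order was loose: mir-411 exceeded mir-136 in 15 libraries and equalled it in 1, and mir-136 exceeded mir-381 in 12 and equalled it in 2. mir-381 exceeded mir-541 in 17 libraries and mir-541 exceeded mir-300 in 22. Mature products are of nearly equal length, so levels of different hairpins were compared without a correction for length; how well each sequence is captured by the library kit was not measured.

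**Figure D1:**
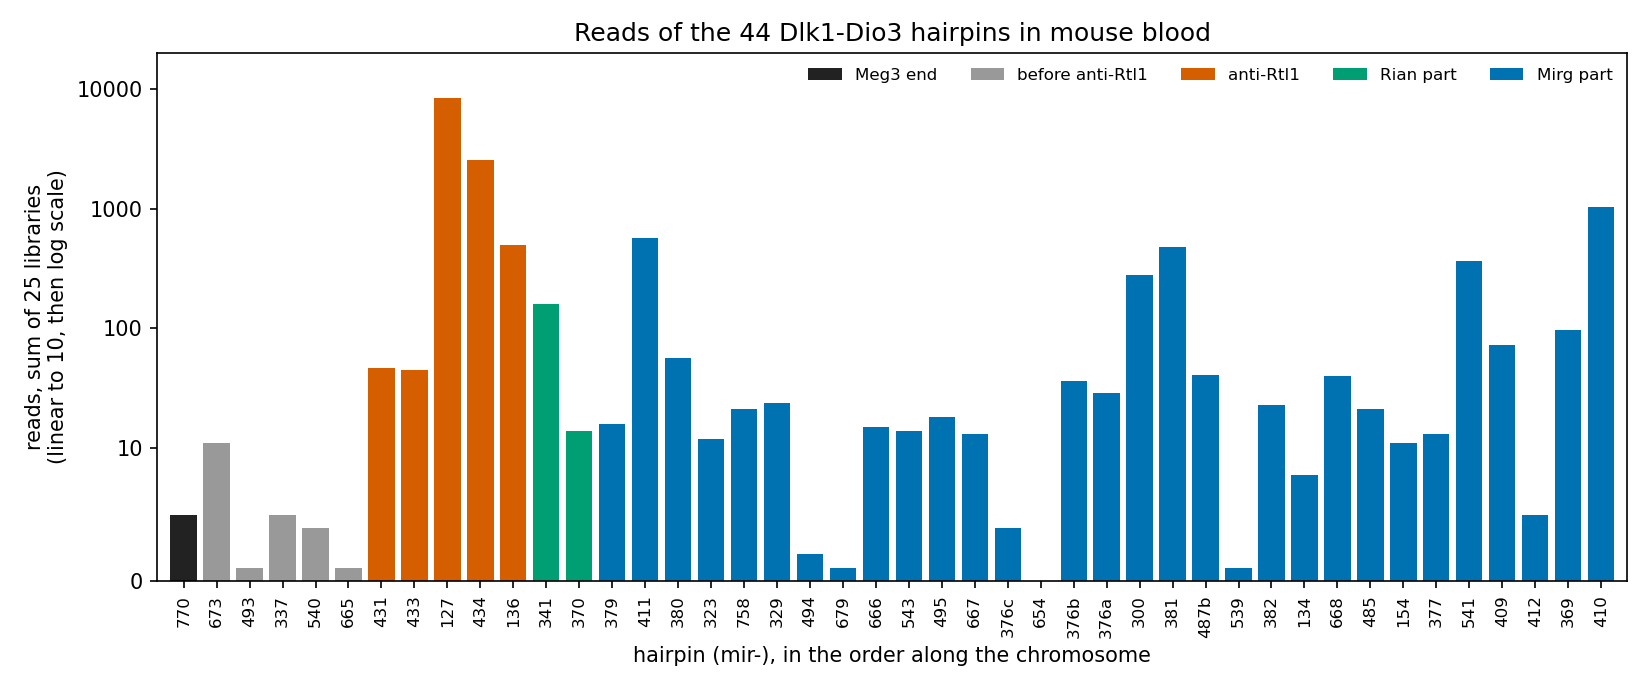
Reads of each of the 44 hairpins summed over 25 blood libraries (vertical axis, linear up to 10 reads and logarithmic above), in their order along the chromosome (horizontal axis) and coloured by part of the region. The 3 tall bars of the antisense Rtl1 part are mir-127, mir-434 and mir-136 with 8394, 2534 and 493 reads, the last bar is mir-410 with 1030 reads, and mir-654 has 0.

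Neighbours in the cluster differed by large factors. mir-411 had 568 reads and mir-379 had 16, a ratio of 35.5 with an exact 95% interval of 21.7 to 62.5 that covers counting error only, and mir-411 was higher in 25 of 25 libraries. Within the group antisense to Rtl1, mir-431 had 47 reads and mir-433 had 45, against 8394 of mir-127 beside them. All 6 hairpins at the near end, mir-770 of Meg3 and the 5 before the antisense Rtl1 group, had 11 reads or fewer each.

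By part of the region, the mean share of the antisense Rtl1 group lay between 76.3% and 78.2% at the 5 ages. The antisense Rtl1 group held 76.3% ± 1.56 of the reads of the cluster at 2 months and 78.2% ± 2.61 at 30 months (SD, n = 5), and the hairpins from mir-379 to mir-410 held 22.4% ± 1.60 and 20.8% ± 2.67. mir-127 alone held 55.6% ± 1.58 at 2 months and 57.2% ± 4.90 at 30 months. These differences lie within the spread between libraries and were not tested.

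Most members were too scarce to be followed one by one. A count of 3 reads, taken as the floor, corresponds to 0.118 CPM in the library of the largest scaled size and to 0.528 CPM in that of the smallest. Only 10 members averaged at least 3 reads per library, 32 had under 50 reads in all 25 libraries together, and mir-654 was at 0 in every library, which allows up to 0.00775 CPM over the pooled reads. A single library held between 14 and 34 members with at least 1 read, and between 6 and 19 with at least 3.

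The 2 members that averaged at least 3 reads and did not pass the filter were mir-341, in the Rian intron, and mir-369, near the end of Mirg. mir-341 ranged from 0.176 to 0.779 CPM with 160 reads in all, and its means were 0.440 ± 0.211 CPM at 2 months, 0.442 ± 0.254 at 9, 0.409 ± 0.201 at 15, 0.397 ± 0.227 at 24 and 0.313 ± 0.112 at 30 months (SD, n = 5). mir-369 ranged from 0 to 0.566 CPM with 96 reads in all. The other 34 members had 73 reads or fewer each, led by mir-409 with 73, mir-380 with 57 and mir-431 with 47. mir-134, which limits dendritic spine growth in neurons, had 8 reads in the whole series.

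The summed level of the 44 members describes the cluster as a whole. The sum stood at 47.9, 43.1, 35.8, 43.1 and 32.0 CPM in the 5 libraries of 2 months and at 47.6, 34.9, 42.8, 25.9 and 48.9 CPM in those of 9 months. For the sum, the CPM values were 34.8, 52.6, 32.5, 36.2 and 29.1 at 15 months and 38.4, 32.2, 54.7, 38.7 and 37.5 at 24 months. The sum at 30 months gave 24.3, 48.9, 28.1, 42.1 and 25.3 CPM. The ages overlapped: the highest library of each age lay between 47.9 and 54.7 CPM, and the lowest between 24.3 and 32.2. At 30 months 2 libraries stood at 42.1 and 48.9 CPM and the other 3 between 24.3 and 28.1 CPM. The 3 low ones, replicates 1, 3 and 5, were sequenced on lanes 6, 8 and 6, which had the lowest lane means of the sum (28.1 CPM in lane 6 and 31.8 in lane 8). Those lane means include the 3 low libraries themselves. Replicates 2 and 4 were on lanes 7 and 5.

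The mean sum was 40.4 ± 6.38 CPM at 2 months, 40.0 ± 9.62 at 9, 37.0 ± 9.09 at 15, 40.3 ± 8.45 at 24 and 33.7 ± 11.1 at 30 months (SD, n = 5). The sum at 30 months was 0.836 of that at 2 months, and it ranged from 0.742 to 0.985 under the other settings tried, with 0.985 where library totals replaced the TMM factors. No test was made on the sum, since the members were chosen with earlier results of these data known. In whole blood, fewer cells of a type and less of a microRNA per cell cannot be told apart.

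Of the hairpins antisense to Rtl1, mir-127 was the most abundant. mir-127 stood at 26.9, 24.6, 19.9, 24.4 and 17.0 CPM in the 5 libraries of 2 months and at 25.7, 18.6, 24.9, 16.2 and 27.2 CPM in those of 9 months. For mir-127, the CPM values were 18.8, 29.2, 18.4, 20.4 and 15.8 at 15 months and 21.8, 17.1, 28.6, 22.2 and 22.9 at 24 months. mir-127 at 30 months gave 14.4, 27.6, 13.7, 25.8 and 15.2 CPM. High and low libraries occurred at every age, and the 30-month libraries held both the lowest value, 13.7 CPM, and one of the highest, 27.6 CPM.

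Mean levels of mir-127 were 22.5 ± 4.03 CPM at 2 months, 22.5 ± 4.81 at 9, 20.5 ± 5.12 at 15, 22.5 ± 4.11 at 24 and 19.4 ± 6.78 at 30 months (SD, n = 5). The difference at 30 against 2 months was -0.22 on the log2 scale with a 95% interval from -0.66 to 0.22 (SE 0.21, adjusted p = 0.568, edgeR), and at 24 months it was 0.00059 (SE 0.21, adjusted p = 0.998). As folds, the bounds of the interval at 30 months are 0.634 and 1.16 of the 2-month level.

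mir-434 lies 1 hairpin along from mir-127 on the same strand. mir-434 stood at 7.50, 6.59, 6.17, 6.42 and 5.63 CPM in the 5 libraries of 2 months and at 8.61, 5.71, 6.98, 3.95 and 6.79 CPM in those of 9 months. For mir-434, the CPM values were 6.69, 8.84, 5.95, 6.89 and 5.17 at 15 months and 5.94, 6.41, 9.74, 7.03 and 6.33 at 24 months. mir-434 at 30 months gave 4.21, 6.72, 6.24, 6.51 and 4.17 CPM. One library of 24 months, replicate 3, stood above the other 4 of its age, which lay between 5.94 and 7.03 CPM. Means were 6.46 ± 0.683 CPM at 2 months, 6.41 ± 1.72 at 9, 6.71 ± 1.37 at 15, 7.09 ± 1.53 at 24 and 5.57 ± 1.27 at 30 months (SD, n = 5), and the difference at 30 against 2 months was -0.22 on the log2 scale (SE 0.20, adjusted p = 0.533, edgeR).

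mir-136 is another microRNA complementary to Rtl1. mir-136 stood at 2.41, 1.28, 1.78, 1.34 and 1.03 CPM in the 5 libraries of 2 months and at 1.32, 1.42, 1.298, 0.565 and 1.64 CPM in those of 9 months. For mir-136, the CPM values were 0.810, 1.40, 1.03, 0.927 and 0.969 at 15 months and 1.63, 1.06, 1.81, 0.176 and 0.801 at 24 months. mir-136 at 30 months gave 0.903, 2.12, 0.992, 1.001 and 0.794 CPM. At 24 months the values ran from 0.176 CPM, a single read in replicate 4, to 1.81 CPM, the widest range of any age. Means were 1.57 ± 0.543 CPM at 2 months, 1.25 ± 0.405 at 9, 1.03 ± 0.225 at 15, 1.09 ± 0.658 at 24 and 1.16 ± 0.541 at 30 months (SD, n = 5), highest at 2 months, and the difference at 15 against 2 months was -0.60 on the log2 scale (SE 0.33, adjusted p = 0.783, edgeR).

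The reads of mir-136 cannot be assigned to it with certainty. mir-3071, which is not a member, lies on the opposite strand across mir-136, and 20 bases are shared by the places of miR-136-5p and miR-3071-3p. mir-3071 had 467 reads against 493 of mir-136, with mir-136 higher in 11 libraries, mir-3071 higher in 11 and equal counts in 3. The sources used here do not say whether the counting used the strand of the reads.

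From the part that ends in Mirg, mir-410 was the most abundant. mir-410 stood at 3.86, 2.41, 2.29, 3.55 and 3.03 CPM in the 5 libraries of 2 months and at 3.04, 2.41, 2.35, 0.777 and 3.98 CPM in those of 9 months. For mir-410, the CPM values were 2.05, 3.79, 2.10, 2.65 and 1.94 at 15 months and 2.69, 1.99, 3.63, 3.17 and 2.26 at 24 months. mir-410 at 30 months gave 1.73, 4.70, 2.13, 2.00 and 1.09 CPM. Replicate 2 of 30 months, at 4.70 CPM, was the highest library of the series, while the other 4 of that age lay between 1.09 and 2.13 CPM. Means were 3.03 ± 0.687 CPM at 2 months, 2.51 ± 1.17 at 9, 2.51 ± 0.771 at 15, 2.75 ± 0.665 at 24 and 2.33 ± 1.38 at 30 months (SD, n = 5), and the difference at 30 against 2 months was -0.38 on the log2 scale (SE 0.34, adjusted p = 0.531, edgeR).

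mir-411 had the lowest adjusted p of the cluster. mir-411 stood at 1.90, 1.84, 1.53, 1.23 and 1.45 CPM in the 5 libraries of 2 months and at 2.04, 1.51, 2.19, 1.20 and 1.56 CPM in those of 9 months. For mir-411, the CPM values were 1.46, 2.18, 0.942, 1.06 and 0.969 at 15 months and 1.11, 1.56, 2.25, 1.23 and 1.38 at 24 months. mir-411 at 30 months gave 0.677, 1.38, 1.42, 1.501 and 0.298 CPM. The 2 lowest libraries of the series, at 0.298 and 0.677 CPM with 3 and 9 reads, were both of 30 months, and the other 3 libraries of that age lay within the range of 2 months. Means were 1.59 ± 0.279 CPM at 2 months, 1.70 ± 0.407 at 9, 1.32 ± 0.524 at 15, 1.51 ± 0.446 at 24 and 1.05 ± 0.537 at 30 months (SD, n = 5).

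For mir-411 the difference at 30 against 2 months was -0.62 on the log2 scale, with a 95% interval from -1.28 to 0.04 (SE 0.32, adjusted p = 0.221, edgeR). It did not pass the threshold of 0.05. Under the alternatives its adjusted p ran from 0.141 to 0.564. The linear trend was -0.16 on the log2 scale per 10 months (SE 0.097, adjusted p = 0.255), with a range of adjusted p from 0.0777 to 0.790 under the alternatives.

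mir-300 and mir-381 lie next to each other in the cluster. mir-381 stood at 1.06, 1.63, 0.763, 1.59 and 0.969 CPM in the 5 libraries of 2 months and at 2.04, 1.56, 1.22, 0.847 and 2.18 CPM in those of 9 months. For mir-381, the CPM values were 1.19, 1.56, 0.856, 0.728 and 0.888 at 15 months and 1.35, 0.622, 2.52, 0.176 and 0.728 at 24 months. mir-381 at 30 months gave 0.527, 0.829, 0.992, 1.501 and 0.993 CPM. A value of 0.176 CPM in replicate 4 of 24 months rests on 1 read, and the 2.52 CPM of replicate 3 of the same age was the highest of the series. mir-300 stood at 0.504, 0.567, 0.445, 0.925 and 0.606 CPM in the 5 libraries of 2 months and at 1.27, 0.661, 0.649, 0.282 and 1.25 CPM in those of 9 months. For mir-300, the CPM values were 0.540, 1.46, 0.728, 0.464 and 0.727 at 15 months and 0.650, 0.809, 0.946, 1.23 and 0.364 at 24 months. mir-300 at 30 months gave 0.301, 0.829, 0.850, 0.801 and 0.199 CPM. The ages overlapped for both hairpins, and at 15 months replicate 2 of mir-300 stood apart from the other 4 libraries, which lay between 0.464 and 0.728 CPM. The difference at 30 against 2 months was -0.34 on the log2 scale for mir-381 (SE 0.42, adjusted p = 0.656, edgeR) and -0.10 for mir-300 (SE 0.45, adjusted p = 0.910). The direction of mir-300 turned under library totals (0.12) and with lane in the fit (0.066). It also turned without replicate 4 of 2 months (0.17), without replicate 1 of 30 months (0.15) and without replicate 5 of 30 months (0.18).

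mir-541 completes the tested set. mir-541 stood at 1.06, 1.13, 0.891, 1.23 and 0.909 CPM in the 5 libraries of 2 months and at 1.32, 0.708, 0.811, 0.494 and 1.40 CPM in those of 9 months. For mir-541, the CPM values were 0.648, 1.46, 0.728, 0.927 and 0.888 at 15 months and 0.789, 0.871, 1.26, 1.76 and 0.946 at 24 months. mir-541 at 30 months gave 0.376, 1.01, 0.283, 1.20 and 0.695 CPM. The spread was narrow at 2 months, from 0.891 to 1.23 CPM, and wider at 30 months, where the lowest library held 2 reads. Means were 1.05 ± 0.147 CPM at 2 months, 0.948 ± 0.398 at 9, 0.929 ± 0.315 at 15, 1.13 ± 0.397 at 24 and 0.714 ± 0.396 at 30 months (SD, n = 5). The difference at 30 against 2 months was -0.53 on the log2 scale (SE 0.34, adjusted p = 0.336, edgeR).

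**Figure D2:**
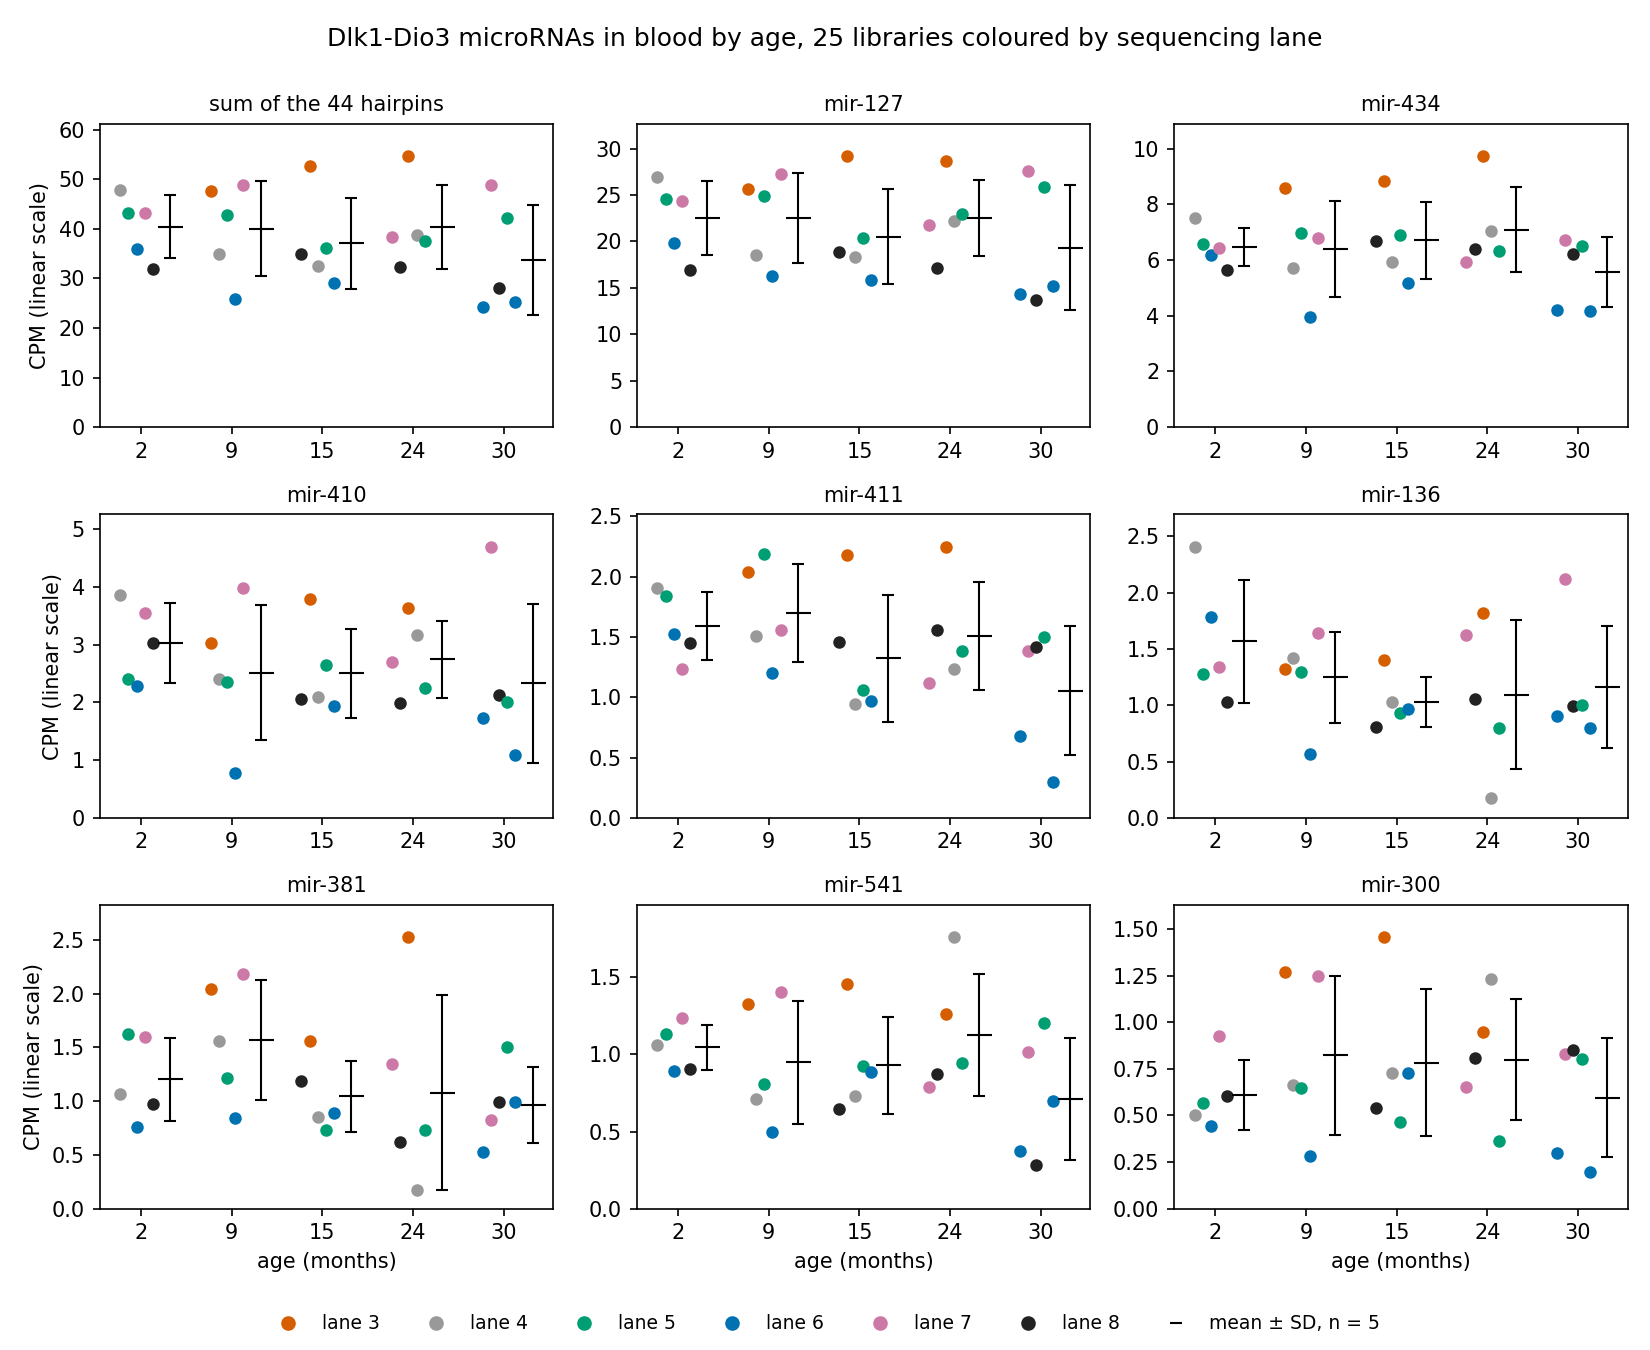
CPM of the summed cluster and of the 8 tested hairpins (vertical axes, linear from 0) in each of the 25 libraries, by age in months (horizontal axes), with points coloured by sequencing lane and a bar for the mean ± SD of 5 libraries. The ages overlap in every panel, with mean sums of 40.4 CPM at 2 months and 33.7 at 30 months, and the points of lane 3 lie high in most panels while those of lane 6 lie low.

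Across the comparisons with age, the 8 tested members gave no call. In the linear trend over months, 0 of 8 members passed the threshold (adjusted p under 0.05, edgeR), against 19.8% of all tested hairpins. At 30 against 2 months it was 0 of 8 against 14.2%, at 24 against 2 months 0 of 8 against 12.1%, at 15 against 2 months 0 of 8 against 1.48%, and at 9 against 2 months 0 of 8 against 2.07%. For a difference between any of the ages it was 0 of 8 against 7.99%. The background itself leaned on single libraries: the trend called 67 hairpins, and 43 without replicate 3 of 2 months. At 24 against 2 months 41 were called, and 23 without replicate 5 of 24 months. At an unadjusted p under 0.05 the count was also 0 of 8 in each of these 6 comparisons with edgeR and with DESeq2. With limma-voom it was 1 of 8 at 30 against 2 months and 0 in the others. The share of all tested hairpins at that limit with edgeR was 32.5% in the trend and 20.4% for any age. Against 2 months it was 26.6% at 30, 24.6% at 24, 5.92% at 15 and 7.69% at 9 months. The 8 members are few and several vary together, so a count of 0 says little beside any of the shares past the adjusted threshold. It says least beside 1.48% and 2.07%.

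All 8 members lay lower at 30 than at 2 months, with a median log2 difference of -0.36, beside -0.04 over all tested hairpins, of which 186 lay lower and 152 higher. Several members vary together from library to library, so these 8 directions are not 8 separate observations. The direction also rests on the scaling: with library totals the differences of mir-127, mir-434 and mir-300 turned to 0.011, 0.026 and 0.12, and with that scaling the median of all hairpins shifted to 0.20. At 24 against 2 months 5 members lay higher and 3 lower, with a median of 0.01, beside -0.0037 over all hairpins.

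No tested member had values at an older age that lay entirely outside those of 2 months. Over all tested hairpins such groups without overlap made up 3.25% at 9 months, 2.37% at 15, 10.4% at 24 and 10.7% at 30 months. The variation between animals of 1 age, as the biological coefficient of variation fitted by edgeR, ran from 20.4% to 36.1% over the 8 members, with a median of 26.5% beside 21.6% over all tested hairpins.

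**Figure D3:**
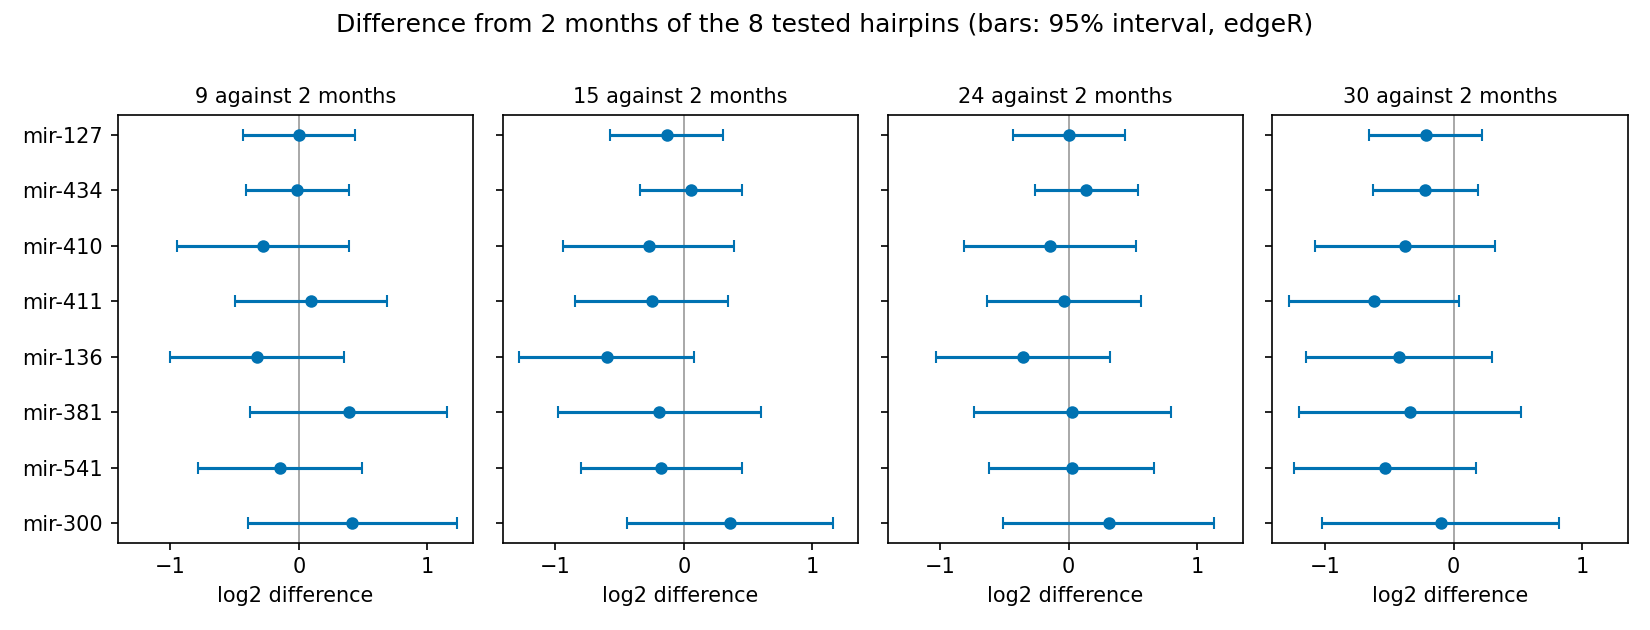
Log2 difference of each older age from 2 months (horizontal axes) for the 8 tested hairpins (vertical axis), with 95% intervals from the edgeR fit over all 25 libraries. All 32 intervals include 0; at 30 months all 8 points lie below 0, from -0.62 for mir-411 to -0.10 for mir-300.

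Without the filter on low counts, 43 of the 44 members entered the fit and again none passed the threshold. Of all 865 hairpins in that fit 39 passed in the trend and 17 for any age. Against 2 months 15 passed at 30, 24 at 24, 4 at 15 and 5 at 9 months. mir-370, mir-379 and mir-411 at 30 against 2 months, mir-134 at 15 months and mir-329 and mir-668 at 9 months had unadjusted p under 0.05. The share of all hairpins at that limit was not counted in this fit, so these members cannot be set beside it. mir-379 had 16 reads, mir-370 had 14 and mir-134 had 8 in the whole series, so these values rest on a few reads.

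Other imprinted microRNAs of the same libraries were set beside mir-127 as ratios of reads within a library, as a description. mir-296, from the imprinted Gnas region, stood at 96.6 ± 11.9 CPM at 2 months and at 6.43 ± 0.633 at 30 months (SD, n = 5). The ratio of mir-127 to mir-296 was 0.233 ± 0.0252 at 2 months and 3.01 ± 1.06 at 30 months, without overlap. mir-335, from an intron of the imprinted gene Mest, stood at 5.87 ± 1.25 CPM at 2 months and at 12.3 ± 3.21 at 30 months. The ratio of mir-127 to mir-335 was 3.91 ± 0.785 at 2 months and 1.58 ± 0.333 at 30 months. Both pairs were chosen with the levels of mir-296 and mir-335 known, so no test is given. The ratios do not depend on the scaling.

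Sequencing lane, which the column names give, moved with the level of the cluster. The libraries were run on 6 lanes, numbered 3 to 8. Lane 3 held replicate 1 of 9 months, replicate 2 of 15 months and replicate 3 of 24 months, while 2 of the 5 libraries of lane 6 were of 30 months and none was of 24 months. The summed level was 51.6 ± 3.61 CPM in lane 3 (SD, n = 3) and 28.1 ± 4.68 in lane 6 (n = 5). Lane means of the sum were 38.5 CPM in lane 4, 40.3 in lane 5, 44.8 in lane 7 and 31.8 in lane 8. For mir-127 the means were 27.8 ± 1.90 CPM in lane 3, 21.5 ± 4.002 in lane 4, 23.7 ± 2.14 in lane 5, 16.3 ± 2.11 in lane 6, 25.3 ± 2.71 in lane 7 and 16.7 ± 2.12 in lane 8. For mir-434 all 3 libraries of lane 3, from 8.61 to 9.74 CPM, lay above all 22 others.

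A test of lane with age in the same fit, chosen after these values were seen, called 3 of the 8 members: mir-127 (adjusted p = 0.0142, edgeR), mir-434 and mir-410 (both 0.0193). Of all tested hairpins it called 8, or 2.37%. The other 5 were mir-378d, let-7j, mir-19b-1, mir-19b-2 and mir-200a. Among the remaining members the unadjusted p of this test ran from 0.00586 for mir-300 to 0.107 for mir-136 (edgeR). Hairpins that are not members had low unadjusted p too: 0.00135 for mir-3071, 0.00912 for mir-335, 0.0129 for mir-27a and 0.0177 for mir-486a. For mir-9-3 and mir-9-1 it was 0.0265 and 0.0302. The calls moved with the scaling: with library totals lane called 6 members of 12 hairpins, and with upper quartile factors 0 members of 3 hairpins.

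The sources used here do not say what differed between the lanes besides the run itself. The hairpins of red cells (mir-451a, mir-451b, mir-144, mir-486a and mir-486b) held 67.8% to 70.02% of all reads in the 3 libraries of lane 3 and 68.5% to 80.6% in the 22 others. Lane 3 held no library of 2 or 30 months, so it enters the comparison of those ages through the shared filter, scaling and spread, not through the group means. Lane 6, with the lowest mean sum, held 1 library of 2 months and 2 of 30 months. Lane 4 held 1 of 2 months and 0 of 30 months. With lane as a term of the fit, the difference at 30 against 2 months was -0.19 on the log2 scale for mir-127, -0.16 for mir-434 and -0.56 for mir-411 (adjusted p = 0.405, 0.491 and 0.156, edgeR), and 0 of 8 members passed the threshold in any of the 6 comparisons. The column names also carry an index sequence that differs in every library and follows the ages in alphabetical order, except in replicates 4 and 5 of 30 months, so index and age cannot be told apart.

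Of the 7 other tested members, 4 rose and fell with mir-127 from library to library. Every other tested hairpin was correlated with mir-127 over the 25 libraries on log2 CPM, with p from 100000 permutations adjusted over all of them. Only 8 of them, or 2.37%, passed 0.05 by Pearson's r, all with positive r, and 4 were members. With library totals in place of the TMM factors 23 passed, 19 with positive and 4 with negative r, and 5 were members: those 4 and mir-300. The negative ones included mir-486a and mir-486b of red cells (r = -0.63 for both, adjusted p = 0.0170), whose r was -0.07 with the TMM factors. mir-541 had r = 0.80 and Spearman's rho = 0.81, and mir-434 had r = 0.78 and rho = 0.83 (permutation, adjusted p = 0.00168 for each of these 4 values). mir-410 had r = 0.72 and rho = 0.77 (adjusted p = 0.00168 for both), and mir-411 had r = 0.64 and rho = 0.66 (adjusted p = 0.0129 and 0.0290). The other 3 tested members had lower r: 0.54 for mir-300, 0.46 for mir-381 and 0.44 for mir-136 (adjusted p = 0.121, 0.286 and 0.342), with rho of 0.51, 0.53 and 0.62 (adjusted p = 0.239, 0.190 and 0.0441), so that mir-136 passed by rho.

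The 4 hairpins from outside the list that passed were mir-9-3 (r = 0.74, rho = 0.76, adjusted p = 0.00168 for both), mir-3071 (r = 0.69, rho = 0.66, adjusted p = 0.0129 and 0.0337), mir-9-1 (r = 0.66, rho = 0.62, adjusted p = 0.0160 and 0.0441) and mir-9-2 (r = 0.65, rho = 0.61, adjusted p = 0.0160 and 0.0441). Over the 8 hairpins that passed by r, the unadjusted p ran from 1e-05, the smallest that these permutations can give, to 0.00038. mir-3071 is the hairpin across mir-136, and the 3 mir-9 copies give the same mature microRNA, which is abundant in the nervous system, so that reads cannot be told apart between them. The median r with mir-127 was 0.64 over the 7 other tested members and -0.01 over all hairpins correlated.

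These correlations were of similar size within ages and lower within lanes. After the mean of each age was removed, r was 0.79 for mir-541, 0.79 for mir-434, 0.72 for mir-410 and 0.59 for mir-411. After the mean of each lane was removed it was 0.61, 0.65, 0.47 and 0.60, and 0.12 for mir-300, 0.05 for mir-381 and 0.28 for mir-136. With permutation inside lanes, no hairpin passed after adjustment, and 34 of them, 3 members among these, had an unadjusted p under 0.05. Without the 2 libraries farthest from the median of mir-127, replicates 1 and 3 of 30 months, r was 0.71 for mir-541, 0.81 for mir-434, 0.75 for mir-410 and 0.66 for mir-411, and all 4 still passed among 6 hairpins.

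**Figure D4:**
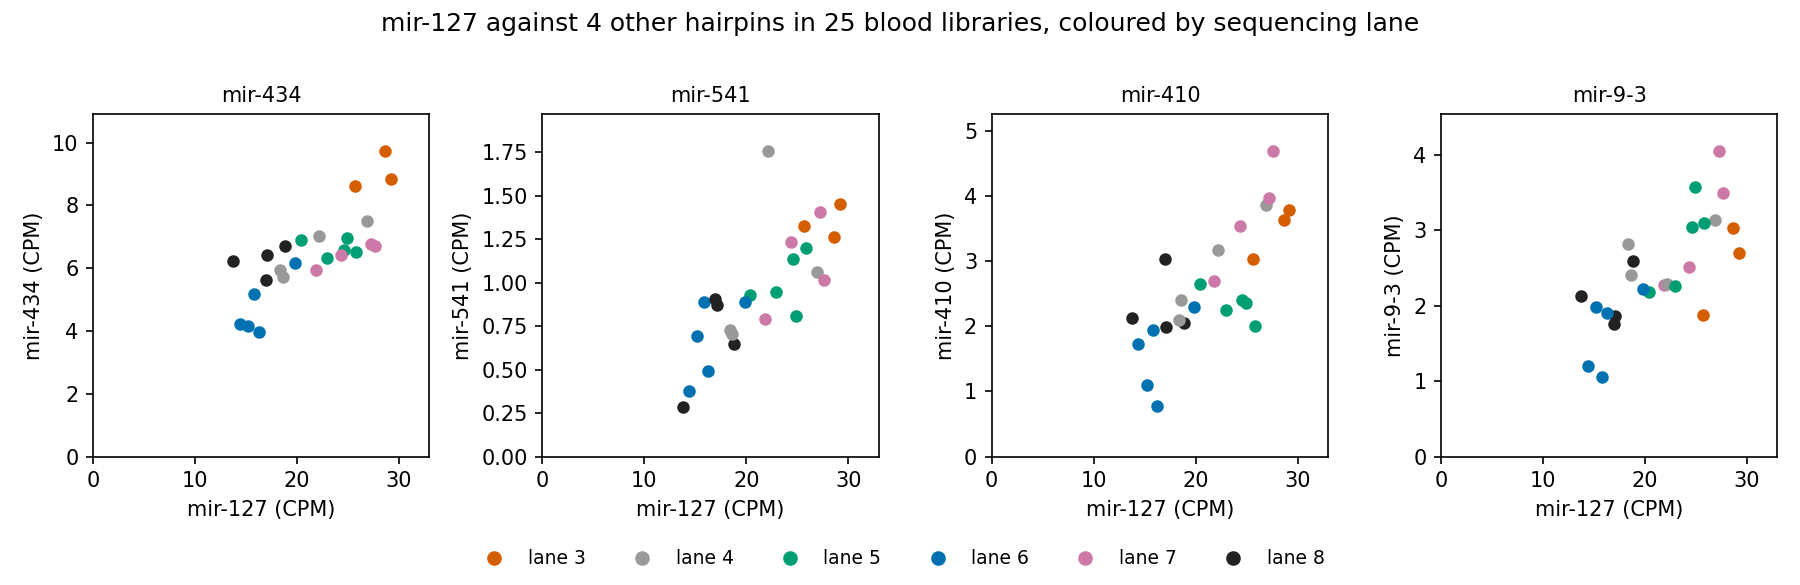
CPM of mir-434, mir-541, mir-410 and mir-9-3 (vertical axes) against CPM of mir-127 (horizontal axes) in 25 blood libraries, coloured by sequencing lane, on linear axes from 0. Levels rise together (r on log2 CPM of 0.78, 0.80, 0.72 and 0.74), with lanes 6 and 8 at the low end and lane 3 at the high end of mir-127.

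Markers of other tissues were measured in the same libraries, since several members are abundant in brain. Of the 8 hairpins listed for nervous tissue (mir-124-1, mir-124-2, mir-124-3, mir-9-1, mir-9-2, mir-9-3, mir-129-1 and mir-129-2) all 8 were in the table, 4 were tested and none was at 0 in every library. Their summed level ran from 7.39 to 11.6 CPM at 2 months, 5.65 to 12.7 at 9, 7.35 to 10.3 at 15, 8.52 to 10.8 at 24 and 5.34 to 12.9 at 30 months. The 3 copies of mir-9 made up most of it, with means of 2.51, 2.48 and 2.46 CPM, while the neuronal mir-124 copies averaged 0.318, 0.377 and 0.464 CPM. By lane, mir-9-3 averaged 1.67 CPM in lane 6 and between 2.08 and 3.09 CPM in the other lanes. The test of lane called none of the copies (adjusted p = 0.408 for mir-9-1, 0.847 for mir-9-2 and 0.405 for mir-9-3, edgeR). Before adjustment the p of that test was 0.0302, 0.161 and 0.0265, so an effect of lane on the copies is not excluded. The remaining tested hairpin of the list, mir-124-3, had r = 0.41 with mir-127 (permutation, adjusted p = 0.494). Some other tissue lists, summed in the same way, reached higher levels over the 25 libraries. They ran from 6.68 to 236 CPM for muscle, 12.4 to 127 for epithelium and 27.2 to 79.7 for fibroblasts and smooth muscle. Each of these sums rested mostly on mir-133a-1 and mir-133a-2 (means of 25.2 and 25.4 CPM), mir-141 (59.4) or mir-143 (45.4). The other hairpins of these lists averaged 6.51 CPM (mir-200c) or less, and mir-1a-1 averaged 0.0112, mir-200b 0.321 and mir-214 0.195 CPM. Of the muscle list mir-206 was at 0 in every library. Of the 2 hairpins of the endocrine list only 1, mir-375, was found under its listed name, and it ran from 4.80 to 12.3 CPM. Liver mir-122 ran from 0 to 1.13 CPM. The part of other tissues in the level of the cluster was not tested.

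As a check of the labelled tissue, hairpins that define blood cells were abundant in every library. mir-486a averaged 296074 CPM and mir-451a 85138 CPM, both of red cells, mir-142a of white cells averaged 8183 CPM, and mir-223 of neutrophils and monocytes averaged 109.0 CPM. Against these, mir-127 averaged 19.4 to 22.5 CPM by age.

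The table held 17 further hairpins between Dlk1 and Dio3 that are not members. Of these 10 were at 0 in every library, and only mir-3071 was tested. mir-496a, in an intron of Mirg, had 29 reads in all, mir-1247 of the noncoding RNA Dio3os at the far end had 17, and mir-3544, across mir-337, had 10. mir-299a had 3 reads, and mir-544 and mir-3072 had 1 each. Apart from mir-3071, every further hairpin of the region thus had 29 reads or fewer.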

How the data were processed

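Per the labels' protocols, the TruSeq small RNA kit was used on the blood of 25 mice. A single table of counts per microRNA hairpin was deposited, whole numbers not normalised, with totals of 4.884 to 24.25 M per library and a median of 15.39 M. Per the submitters' processing notes bcl2fastq 1.8.4, Trimmomatic 0.36 and SAMtools 1.3.1-9 were used. The sources used here do not name their roles, nor the aligner, counter, microRNA release, build or strand setting. The kit adds no molecular identifiers, so intervals and floors on counts cover counting error only.

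Groups are the labelled ages, and replicate numbers follow deposition order and pair no animals. Counts were tested by quasi-likelihood F tests (edgeR 4.0.16, R 4.3.3, TMM factors, expression filter by age, robust dispersion). All 25 libraries shared 1 fit, the filter left out 855 hairpins, and p-values were adjusted over all others (Benjamini-Hochberg, threshold 0.05, two-sided). The trend is linear in months. Log2 CPM for correlations used a prior count of 2. The script was tested on simulated data.

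Alternatives were library totals, upper quartile factors, DESeq2 1.42.0, limma-voom (limma 3.58.1), no filter, a mean count of at least 10, only the ages compared, lane in the fit, red cell hairpins left out and each library left out. Leaving out the 2 libraries under 6 M counts, the test of lane and the settings of the correlations were added after the data were seen.

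Members tested, up to the 10 highest, are given in every library, those with a mean of at least 3 counts by range, and the others by counts. Further names, and the hairpins called by lane or correlated with mir-127, were picked with their values known. The members and lists were chosen with earlier results of these data known. Positions and sequences come from RefSeq (GRCm38.p6) and GENCODE vM21, which need not be the build of the authors.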

Additional observations from a re-analysis of the deposited data

Results flagged for a closer look

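Within an age, 5 of 45 groups of 5 libraries had 1 library far from the others (its gap to the nearest value was over 0.71 of the range of the group), where chance alone flags about 1 group in 20. Replicate 3 of 24 months, run on lane 3, was high for mir-434 at 9.74 CPM, with the others at 5.94 to 7.03, and for the summed cluster at 54.7 CPM, with the others at 32.2 to 38.7. Replicate 2 of 15 months, also of lane 3, was high for mir-300 at 1.46 CPM, with the others at 0.464 to 0.728. Replicate 2 of 30 months was high for mir-410 at 4.70 CPM, with the others at 1.09 to 2.13, and for mir-136 at 2.12 CPM, with the others at 0.794 to 1.001. The reason was not tested.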

How the results depend on the processing

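The count of called members was 0 in each of the 6 comparisons under all 35 alternatives, with a lowest adjusted p of 0.0777 (mir-411, trend, lane in the fit). The ratio of the summed level at 30 over 2 months ran from 0.742 to 0.985. Of 559 values of single members in the trend and at 30 against 2 months under the alternatives, 32 changed sign, none with a call. Changes of sign in the other comparisons were not counted, and the cause was not tested. With library totals the trend on the log2 scale per 10 months turned to 0.055 for mir-127, 0.081 for mir-434, 0.085 for mir-300, 0.011 for mir-541 and 0.032 for mir-410, and the difference at 30 against 2 months to 0.011 for mir-127, 0.026 for mir-434 and 0.12 for mir-300. With upper quartile factors the trend turned to 0.0052 for mir-434 and 0.022 for mir-300. Without the 2-month group it turned to 0.027 for mir-136 and 0.014 for mir-410. The trend of mir-300 turned to 0.0078 with a mean count of at least 10 and to 0.0043 without red cell hairpins, and its difference at 30 months to 0.066 with lane in the fit. When each library was left out in turn, the trend ran from -0.0401 to 0.0172 for mir-434 and from -0.0399 to 0.0549 for mir-300, and the difference of mir-300 at 30 months from -0.22 to 0.18. The trend of mir-434 turned without replicate 1 of 9 months, replicate 1 of 30 months or replicate 5 of 30 months, and that of mir-300 without any 1 of 11 libraries. No paired analysis was possible because replicate numbers follow deposition order and no animal was sampled at more than 1 age.

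Over all hairpins the number called moved with the settings: the trend called 67 (36 higher, 31 lower), 89 with library totals (80 higher, 9 lower), 39 without the filter and 9 without the 2-month group. At 30 against 2 months 48 were called (31 higher, 17 lower), 57 with library totals (51 higher, 6 lower), 15 without the filter and 30 with only those ages in the fit. At 24 against 2 months 41 were called (26 higher, 15 lower), 72 with library totals (69 higher, 3 lower) and 24 with upper quartile factors or without the filter. At 15 and 9 against 2 months 5 and 7 were called, and 3 and 4 with lane in the fit. For any age 27 were called, 44 with library totals, 17 without the filter, 16 with lane in the fit and 6 without the 2-month group. With each library left out in turn the trend called 43 to 71 (fewest without replicate 3 of 2 months), 30 against 2 months 32 to 56, and 24 against 2 months 23 to 40 (23 without replicate 5 of 24 months, 27 without replicate 5 of 2 months). For any age it was 14 to 33, with 15, 15 and 14 without replicates 3, 4 and 5 of 2 months and 17 without replicate 1 of 24 months. At 15 and 9 against 2 months it was 3 to 5 and 3 to 8. Depth limits what can be seen: 34 members averaged under 3 reads per library.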
